A study of Mus musculus with 14 samples.

Results

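The array carried 12 probes for small nuclear and small nucleolar RNAs, chosen because the probe name held SNORD or snRNA, out of 1343 probe names in all. They comprised 10 probes for C/D box small nucleolar RNAs (SNORD2, SNORD3@, SNORD4A, SNORD6, SNORD10, SNORD12, SNORD13, SNORD14B, SNORD15A and SNORD118, all given human names) and 2 probes for the U6 small nuclear RNA (U6-snRNA-1 and U6-snRNA-2). Each was printed as 3 spots, so they filled 36 of the 5184 spots of an array. The study profiled microRNAs in mouse peritoneal macrophages on Exiqon miRCURY LNA arrays, in which total RNA is labelled with 1 dye, Hy3, and hybridised to locked nucleic acid probes. It used 14 arrays on 7 slides, with 2 arrays per slide. The design compared 2 ways of eliciting the cells and 2 genotypes, and the small RNA probes serve in such work as non-microRNA references.

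All mice were of the BALB/c strain. In 1 pair of groups the cells were collected 3 days after thioglycollate was injected into the peritoneum, from wild type mice (3 arrays) and from mice lacking the IL-4 receptor (3 arrays, labelled IL4 receptor KO). In the other pair they were collected 21 days after implantation of the filarial nematode Brugia malayi, which gives the alternatively activated cells called NeMacs, again from wild type (4 arrays) and IL-4 receptor knockout mice (4 arrays). Elicitation therefore differs together with the number of days, and the parts of the agent and of the time cannot be told apart. In every group the cells had adhered to plastic and were checked by cytometry for F4/80 and CD11b, with some other cells remaining. Whether replicates are separate animals is not stated in the labels. The p-values describe the spread among these arrays alone, which may be technical.

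U6 is the small nuclear RNA at the catalytic core of the spliceosome and is made by RNA polymerase III. Most C/D box small nucleolar RNAs pair with ribosomal RNA and direct the methylation of riboses at fixed positions, while U3 (SNORD3), U8 (SNORD118), U13 (SNORD13) and U14 (SNORD14) are known for their parts in processing or modifying ribosomal RNA precursors. Many C/D box RNAs are cut from introns of genes for ribosomal proteins or translation factors. Both kinds of RNA are widely used as references for microRNA measurements, on the assumption that their level is steady between samples.

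In the RefSeq table of mouse genes (GRCm38.p6), 8 of the 12 probes matched a gene by symbol. Snord2, a 68-base RNA, lies within Eif4a2, a translation initiation factor gene. Snord4a (70 bases) lies within Rpl23a and Snord15a (148 bases) within Rps3, both ribosomal protein genes. Snord12 (66 bases) lies within Zfas1, a non-coding host gene. Snord13 (98 bases), Snord118 (137 bases) and Rnu6 (107 bases, for both U6 probes) lay within no other gene. The genes for SNORD3@, SNORD6, SNORD10 and SNORD14B were not matched, and whether the human-named probes pair perfectly with the mouse RNAs was not analysed here.

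For comparison, the mature sequences of 7 microRNAs commonly used as references are shown, because their stability is set against that of the small RNA probes further on. They are mouse RefSeq sequences (GRCm38.p6), 5′ to 3′, with the seed (bases 2 to 8) in capitals, and no seed is shared between any of them.
miR-16-5p: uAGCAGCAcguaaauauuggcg
miR-103-3p: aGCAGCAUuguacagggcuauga
miR-191-5p: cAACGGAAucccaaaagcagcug
miR-23a-3p: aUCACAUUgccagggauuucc
miR-24-3p: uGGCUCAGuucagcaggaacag
miR-26a-5p: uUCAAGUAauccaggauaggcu
let-7a-5p: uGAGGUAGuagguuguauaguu

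Intensities were taken first as net signal, the spot's brightness less its local background. A probe was counted as above background on an array when the mean of its 3 spots exceeded the 95th percentile of 726 blank and negative control spots, a level that ran from 12.6 to 111 over the 14 arrays. SNORD2, U6-snRNA-1 and U6-snRNA-2 were above it on all 14 arrays. SNORD3@ was above it on 13, the exception being replicate 4 of the nematode wild type group. SNORD13 was above it on 10 arrays, SNORD12 on 6, SNORD14B on 4, SNORD6 on 3, SNORD10 and SNORD118 on 2 each, SNORD4A on 1 and SNORD15A on none. An array showed between 3 and 10 of the 12 probes, with a median of 6.

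These counts depend on the level of the blank spots. The 2 arrays that showed 10 probes, replicate 3 of each thioglycollate group, had blank levels of 12.6 and 15.0, though nematode wild type replicate 3, with 14.8, showed 5. The array that showed 3, nematode wild type replicate 4, had the highest blank level. That array also stood apart in its profile, with a mean correlation of 0.819 to the other arrays of its group, while the other 13 arrays lay between 0.903 and 0.969. Some values that rest on it are given with and without it.

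The labelled cell type was checked against microRNAs known from it. Of 5 macrophage and myeloid microRNAs (miR-223, miR-142-3p, miR-142-5p, miR-21 and miR-146), 4 were above background on all 14 arrays, and miR-146 on 12. Markers of other cell types were above background on some arrays. The 3 erythroid markers were above it on 2 to 4 arrays each, the 2 endothelial on 1 to 5, the 5 stromal on 1 to 7, the 6 epithelial on 3 to 6 and the 4 lymphocyte microRNAs on 3 (miR-181a) to 13 (miR-155). Of the lymphocyte microRNAs, miR-150 and miR-342 were called between groups. In RNA from whole wells, fewer cells of a type and less RNA per cell cannot be told apart.

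U6-snRNA-2 was the brightest of the small RNA probes. Its net intensity was 12491, 7181 and 7048 in the thioglycollate wild type arrays and 11607, 11664 and 9136 in the thioglycollate knockout arrays. It was 13176, 8171, 7996 and 7264 in the nematode wild type arrays and 4091, 4315, 7388 and 7550.3 in the nematode knockout arrays. The values spanned 3.22-fold, and the lowest 2, replicates 1 and 2 of the nematode knockout group, were the pair hybridised on slide 15. The nematode knockout arrays lay below all 3 thioglycollate knockout arrays and overlapped those of the nematode wild type group. No spot of a small RNA probe was saturated: the brightest reading was 13852, against a highest reading of 65218 on the arrays.

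U6-snRNA-1, the other probe for the same RNA, was dimmer and more variable. Its net intensity was 563, 236 and 394 in the thioglycollate wild type arrays and 797, 1458 and 776 in the thioglycollate knockout arrays. It was 1300.2, 637, 286 and 143 in the nematode wild type arrays and 557, 471, 711 and 372 in the nematode knockout arrays. These values spanned 10.2-fold. The nematode wild type group alone held 1 of the 2 brightest arrays and the dimmest, so it covered the range of nearly every other array. In thioglycollate-elicited cells the 3 knockout arrays lay above the 3 wild type arrays.

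SNORD2, which guides ribose methylation of ribosomal RNA, gave 941, 281 and 644 in the thioglycollate wild type arrays and 895, 964 and 974 in the thioglycollate knockout arrays. It gave 1872, 1448, 893 and 644 in the nematode wild type arrays and 1304, 859, 1784 and 1357 in the nematode knockout arrays. On this scale the elicitation groups overlapped in both genotypes. The 3 thioglycollate knockout arrays lay close together, while replicates 1 and 2 of the thioglycollate wild type group, which shared a slide, differed 3.35-fold.

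SNORD3@, the U3 RNA needed to process the precursor of small-subunit ribosomal RNA, was weaker. Its net intensity was 83.3, 42.4 and 35.2 in the thioglycollate wild type arrays and 77.4, 139.7 and 95.6 in the thioglycollate knockout arrays. It was 250.6, 96.0, 33.5 and 17.4 in the nematode wild type arrays and 143, 144, 126 and 88.9 in the nematode knockout arrays. These values spanned 14.4-fold. The highest and the lowest array were both in the nematode wild type group, and the lowest, replicate 4, was below its blank level. The nematode knockout arrays were the most alike.

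SNORD12, a methylation guide from the Zfas1 host gene, was near the blank level. It gave 14.7, 17.5 and 8.87 in the thioglycollate wild type arrays, all below the blank level, and 35.0, 37.3 and 25.7 in the thioglycollate knockout arrays, of which replicates 1 and 3 were above it. It gave 37.3, 23.1, 9.75 and 7.59 in the nematode wild type arrays, with replicate 2 above, and 51.5, 22.7, 93.0 and 44.5 in the nematode knockout arrays, with all but replicate 2 above. SNORD13, the U13 RNA, ranged from 10.9 to 95.3 over the 14 arrays with a median of 46.8, and its highest and lowest arrays were nematode knockout replicate 3 and nematode wild type replicate 4. The other 6 probes had medians between 12.1 and 21.5 and single-array values from 4.95 to 59.5. Among them SNORD14B reached the 59.5, in thioglycollate knockout replicate 2, where its 3 spots had a coefficient of variation of 106%. Where a group was below the blank level on every array, it has only an upper bound, and no difference is read from it.

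The agreement of a probe's 3 spots differed between probes. The median coefficient of variation over the arrays was 9.36% for U6-snRNA-2, 13.8% for SNORD2, 17.0% for U6-snRNA-1 and 23.2% for SNORD3@. For the other 8 probes the medians ran from 16.6% (SNORD6) to 29.1% (SNORD13). Single arrays went well beyond these values, for U6-snRNA-1 up to 56.0% and for U6-snRNA-2 up to 31.6%.

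For the comparison of groups, log2 intensities were quantile normalized over 1321 named probes and tested with limma over all 14 arrays, with p-values adjusted by the Benjamini-Hochberg method over 355 probes (343 mouse microRNA probes and the 12 small RNA probes). A difference counted as called at an adjusted p under 0.05. Quantile normalization gives an array's brightest probe the same value on every array. U6-snRNA-2 was the brightest of the 1321 probes on 12 of the 14 arrays, so on this scale it read 13.06 there by construction. It ranked 4 and 3 on nematode knockout replicates 1 and 2, where it read 11.79 and 11.98. Its test on this scale therefore carries little information, and its values after scaling each array to its median are given instead.

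Only SNORD2 was called in the comparison of elicitations. In wild type cells its log2 intensity was 10.33 ± 0.07 (SD, n = 4) after nematode implantation and 9.50 ± 0.43 (SD, n = 3) after thioglycollate. It rose by 0.83 on the log2 scale (SE 0.18, 95% confidence interval 0.45 to 1.22, limma adjusted p = 0.0398), or 1.78-fold. In IL-4 receptor knockout cells it was 10.38 ± 0.27 (SD, n = 4) against 9.61 ± 0.05 (SD, n = 3), a rise of 0.77 (SE 0.18, interval 0.39 to 1.16, limma adjusted p = 0.0493), or 1.71-fold. All nematode arrays lay above all thioglycollate arrays of the same genotype. In knockout cells the lymphocyte microRNA miR-150 rose too, by 1.01 (limma adjusted p = 0.00114). There miR-155 differed by 0.49, miR-181a by 0.05 and miR-342 by -0.42, none of them called. In wild type cells miR-150 differed by 0.17, not called, and miR-342 by -0.81 (limma adjusted p = 0.0277). In knockout cells the summed net intensity of the 4 lymphocyte probes was 226 to 368 after nematode implantation and 139 to 200.4 after thioglycollate. In wild type cells it was 88.3 to 203 and 120.03 to 223. The sums of the 5 macrophage and myeloid probes were 5220 to 8798 and 10803.5 to 11468 in knockout cells. In wild type cells they were 4115 to 7891 and 6932 to 11193. The part of other cells in the SNORD2 difference was not tested. Before normalization SNORD2 ranked between 8 and 12 among the 1321 probes on the nematode arrays and between 14 and 27 on the thioglycollate arrays.

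Of the 355 probes, 1.41% were called in the wild type comparison (0.563% higher and 0.845% lower), and 1 of 12 small RNA probes was. In the knockout comparison 1.69% were called (1.13% higher), and again 1 of 12 small RNA probes was. Both counts are a single probe. At an unadjusted p under 0.05 the count was 2 of 12 in wild type cells (SNORD2 and SNORD118), against 11.5% of all probes, and 2 of 12 in knockout cells (SNORD2 and U6-snRNA-2), against 9.30%. SNORD118 was below the blank level on every nematode wild type array, so no difference is read from it. U6-snRNA-2 was nearly fixed on this scale. The difference of SNORD2 between genotypes was 0.06 for the interaction (SE 0.25, interval -0.48 to 0.60, limma adjusted p = 0.981), and no small RNA probe was called in it, against 0.563% of all probes. At an unadjusted p under 0.05 the interaction also gave 0 of the 12, against 6.20% of all probes.

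The SNORD2 call depended on the normalization. After each array was scaled to its median, the nematode wild type value was 10.16 ± 0.69 (SD, n = 4) and the thioglycollate wild type value 9.28 ± 0.82 (SD, n = 3). The difference, 0.88 (SE 0.41), was as large as before but its adjusted p was 0.838 with limma. In knockout cells the median-scaled difference was 0.44 (SE 0.41, limma adjusted p = 0.845), and the groups overlapped. With cyclic loess the wild type difference was 1.05 (limma adjusted p = 0.00786) and the knockout difference 0.59 (limma adjusted p = 0.105). On the quantile scale 3 of the 4 nematode wild type arrays had SNORD2 at rank 10 and therefore at an identical value of 10.30, which sets the small SD of that group.

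The calls were also near the threshold. Leaving out 1 array at a time, SNORD2 remained called in 4 of 14 cases in wild type cells and in 4 of 14 in knockout cells, with the adjusted p between 0.0201 and 0.113 in the first and between 0.00917 and 0.166 in the second. The difference kept its direction in all 28 cases. Without thioglycollate wild type replicate 2, the dimmest array for SNORD2, the wild type difference was 0.60 (limma adjusted p = 0.113). Without nematode wild type replicate 4, the array that stood apart, it was 0.84 (limma adjusted p = 0.0430).

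U6-snRNA-2, read on the median-scaled values, averaged 13.11 ± 0.47 (SD, n = 3) in the thioglycollate wild type arrays, 13.38 ± 0.16 (SD, n = 3) in the thioglycollate knockout arrays, 13.09 ± 0.39 (SD, n = 4) in the nematode wild type arrays and 12.46 ± 0.49 (SD, n = 4) in the nematode knockout arrays. The lowest group mean was thus the nematode knockout. It differed from the thioglycollate knockout by -0.92 (SE 0.29, interval -1.54 to -0.29, limma unadjusted p = 0.00758), which did not pass after adjustment (adjusted p = 0.224). Against the nematode wild type, the wild type minus knockout difference was 0.62 (SE 0.27, limma adjusted p = 0.311). In wild type cells the elicitation difference was -0.02 (SE 0.29, interval -0.64 to 0.61). The 2 arrays of slide 15 read 12.02 and 12.05, and the other 2 nematode knockout arrays, on slide 6, read 12.87 and 12.91. All 4 were below the thioglycollate knockout arrays, the lowest of which read 13.20.

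U6-snRNA-1, read on the quantile scale, averaged 8.98 ± 0.08 (SD, n = 3) and 9.60 ± 0.37 (SD, n = 3) in the thioglycollate wild type and knockout arrays. Replicates 1 and 3 of the wild type group both ranked 27 and so read an identical 9.02, which keeps that SD small. After median scaling the SD of that group was 0.57. On the quantile scale the probe averaged 8.80 ± 0.94 (SD, n = 4) and 8.98 ± 0.24 (SD, n = 4) in the nematode wild type and knockout arrays. None of its differences was called: the nematode minus thioglycollate difference was -0.18 (SE 0.38) in wild type and -0.62 (SE 0.38) in knockout cells, with limma adjusted p-values of 0.941 and 0.556. The intervals of those differences, -1.01 to 0.65 and -1.45 to 0.21, leave room for changes of a size that was called for SNORD2. Without nematode wild type replicate 4 the wild type difference was 0.25 (limma adjusted p = 0.800), so its sign rested on that array. Over the 14 arrays the correlation of the 2 U6 probes was -0.0011 on the quantile scale, where the second is nearly fixed, and 0.49 after median scaling. On the median-scaled values the knockout elicitation difference was -0.87 (SE 0.55) for U6-snRNA-1, beside the -0.92 of U6-snRNA-2, and neither was called.

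SNORD3@ averaged 6.87 ± 0.20 (SD, n = 3) and 7.24 ± 0.21 (SD, n = 3) in the thioglycollate wild type and knockout arrays, and 6.87 ± 0.63 (SD, n = 4) and 7.33 ± 0.12 (SD, n = 4) in the nematode wild type and knockout arrays. Its elicitation differences were -0.01 (SE 0.26) in wild type and 0.09 (SE 0.26) in knockout cells. The wild type difference was 0.27 without nematode wild type replicate 4 (limma adjusted p = 0.650), and with median scaling of all arrays it was 0.28 (SE 0.38). The wild type minus knockout differences were -0.46 (SE 0.24) in nematode-elicited and -0.37 (SE 0.28) in thioglycollate-elicited cells, with limma adjusted p-values of 0.434 and 0.991. Without nematode wild type replicate 4 the nematode difference was -0.20 (limma adjusted p = 0.705). SNORD3@ followed U6-snRNA-1 across the arrays, with a correlation of 0.81 on the quantile scale and 0.80 after median scaling over 14 arrays, which share the probes' place on each array and its overall brightness. Both probes were lowest on nematode wild type replicate 4, at 6.06 for SNORD3@ and 7.54 for U6-snRNA-1 on the quantile scale. The correlation without that array was not computed, so how far it rests on that array is not known.

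No small RNA probe was called between genotypes in nematode-elicited cells, where 1.69% of all probes were, or in thioglycollate-elicited cells, where 0.282% were. At an unadjusted p under 0.05, 3 of the 12 were past the threshold in nematode-elicited cells (SNORD12, SNORD13 and U6-snRNA-2), against 13.0% of all probes, and 0 in thioglycollate-elicited cells, against 3.94%. SNORD13 read 5.99 on nematode wild type replicate 4 and 6.63 to 6.78 on the other arrays of that group. Its difference without that array is not given here. U6-snRNA-2 was nearly fixed on this scale, and its median-scaled difference is given above. SNORD12 had the smallest p of the 12 in the nematode comparison. Its wild type minus knockout difference was -0.48 (SE 0.15, limma adjusted p = 0.159). Leaving out nematode knockout replicate 2, the only array of its group with SNORD12 below the blank level, gave -0.62 (limma adjusted p = 0.0142), and leaving out both arrays of slide 15 gave -0.68 (limma adjusted p = 0.0203). Both omissions removed the array of that group lowest for SNORD12, so these values are given as a description. With single arrays left out, no small RNA probe was called in this comparison in 13 of 14 cases. In thioglycollate-elicited cells no difference is given for SNORD12, which was not above the blank level on any wild type array.

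A test for any difference among the 4 groups called 4.23% of the probes. SNORD2 was the only small RNA probe among them (limma F test, adjusted p = 0.0110). At an unadjusted p under 0.05 SNORD12 joined it, 2 of 12 against 16.3% of all probes. The next smallest adjusted p-values were 0.173 for SNORD12 and 0.401 for SNORD14B, and the largest was 0.915 for SNORD4A.

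Groups that did not overlap were counted without a test. In the wild type elicitation comparison 1 of 12 small RNA probes (SNORD2, higher) had groups apart, beside 8.73% of all 355 probes (1.97% higher and 6.76% lower). In the knockout elicitation comparison 4 of 12 had (SNORD2 higher, and SNORD118, SNORD14B and U6-snRNA-1 lower after nematode implantation), beside 16.6% (5.07% higher and 11.5% lower). Between genotypes it was 0 of 12 in nematode-elicited cells, beside 8.45%, and 3 of 12 in thioglycollate-elicited cells (SNORD12 and U6-snRNA-1 lower and SNORD15A higher in wild type), beside 11.5% (4.51% higher and 7.04% lower). SNORD15A was below the blank level on all 14 arrays and SNORD118 on all but 2. SNORD118 and SNORD14B were below it on every nematode knockout array, and SNORD12 on every thioglycollate wild type array. No difference is therefore read from SNORD12, SNORD14B, SNORD15A or SNORD118 in these counts. The shares of all 355 probes likewise take in probes below the blank level. The median difference of the 12 was -0.0034, 0.049, -0.066 and -0.011 on the log2 scale in the 4 comparisons, where the median of all probes was -0.018, -0.037, -0.0040 and 0.

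Slides could be separated from groups only in part. Each slide held a single elicitation. By the clock times in the slide files' headers, with the date not used, the 3 thioglycollate slides came first. The 2 nematode wild type slides followed, and then the 2 nematode knockout slides. Elicitation and slide, and genotype and slide within the nematode cells, therefore cannot be told apart except through slides of the same group. Slide 12 held 1 thioglycollate array of each genotype. Within it the wild type minus knockout difference was 0.21 for SNORD2 on the quantile scale and -0.34 after median scaling. For U6-snRNA-1 it was -0.37 and -0.83, and for SNORD3@ -0.36 and -0.47. U6-snRNA-1 and SNORD3@ thus had the sign of the pooled difference on that slide, while that of SNORD2 turned with the scaling. For U6-snRNA-1 the pooled difference was -0.62 (SE 0.41) on the quantile scale and -1.21 (SE 0.58) after median scaling. Its limma adjusted p was 0.991 on both. The slide sets 1 array against 1, and both are part of the pooled difference, so the shared sign is no separate test.

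Arrays of the same group on the same slide showed how far a probe moved with neither group nor slide changing. After median scaling, U6-snRNA-1 differed by 0.24 to 1.14 on the log2 scale between the 2 arrays of such a slide, over 6 slides. SNORD2 differed by 0.06 to 1.60, SNORD3@ by 0.03 to 0.90 and U6-snRNA-2 by 0.03 to 0.80. For SNORD2, U6-snRNA-1 and U6-snRNA-2 the largest was on slide 10, between replicates 1 and 2 of the thioglycollate wild type group. Apart from slide 10, SNORD2 differed by at most 0.69. These are differences of single arrays, and the median-scaled elicitation differences of SNORD2 between group means were 0.88 and 0.44.

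The spread over all 14 arrays was set against that of the mouse microRNA probes. Only probes of like detection were compared, since a constant of 50 added to the background-corrected signal compresses the spread of dim probes. Detection does not remove that compression: the net median was 50.6 for miR-103, 92.2 for SNORD3@ and 7773 for U6-snRNA-2. The places among the microRNA probes therefore depend on brightness too. Of the 343 mouse probes, 77 were above the blank level on at least 11 arrays, and their median SD was 0.44 on the quantile log2 scale. U6-snRNA-1 had an SD of 0.57, and 63 of the 77 had a lower one. SNORD2 had an SD of 0.47, with 49 of the 77 lower. U6-snRNA-2 had 0.43 (36 lower), all of it from the 2 arrays on which it was not the brightest probe, and SNORD3@ had 0.40 (34 lower). Net intensity, which has no added constant, spanned 14.4-fold for SNORD3@, 10.2-fold for U6-snRNA-1, 6.65-fold for SNORD2 and 3.22-fold for U6-snRNA-2. The lowest SNORD3@ array was below its blank level. With the authors' value table the SD was 0.78 for SNORD3@, 0.64 for U6-snRNA-1, 0.49 for SNORD2 and 0.43 for U6-snRNA-2. The order depended on the scale: after cyclic loess SNORD3@ had an SD of 0.28 (26 of the 77 lower). After scaling to the labelling spike-ins, described further on, U6-snRNA-2 had an SD of 0.47 (16 of the 77 lower) and SNORD2 one of 0.86 (71 lower). On that scale none of the 77 had a smaller range of group means than U6-snRNA-2, at 0.37.

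After median scaling the 4 lay higher in that order. The SD was 0.83 for U6-snRNA-1, with 70 of the 77 detected microRNA probes lower. It was 0.66 for SNORD2 (62 lower), 0.56 for SNORD3@ (50 lower) and 0.50 for U6-snRNA-2 (42 lower), where the median of the 77 was 0.47. Without nematode wild type replicate 4 the quantile-scale SD of U6-snRNA-1 was 0.40 and that of SNORD3@ 0.28, while that of SNORD2 was 0.47. The 8 dimmer probes had quantile-scale SDs from 0.08 (SNORD6) to 0.30 (SNORD12). With the authors' value table, which has no added constant, the SD was 0.29 for SNORD6 and 0.90 for SNORD12.

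The range of the 4 group means on the quantile scale was 0.88 for SNORD2 (64 of the 77 lower), 0.81 for U6-snRNA-1 (58 lower) and 0.46 for SNORD3@ (23 lower), and the median of the 77 was 0.60. For U6-snRNA-2, which was the brightest probe on all but 2 arrays and so nearly fixed on that scale, the median-scaled range was 0.92 (55 of the 77 lower). The pooled SD within groups was 0.25 for SNORD2 and 0.56 for U6-snRNA-1 on the quantile scale, and 0.58 and 0.79 after median scaling. Without nematode wild type replicate 4 the quantile-scale pooled SD of U6-snRNA-1 was 0.34 and its range of group means 0.64.

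On the quantile scale over all 14 arrays, the 7 reference microRNAs whose sequences are given above had SDs from 0.29 (miR-16) to 0.60 (miR-23a), with a median of 0.37. miR-16, miR-26a (0.32) and let-7a (0.37) were above the blank level on all 14 arrays and had lower SDs than each of the 4 detected small RNA probes. So did miR-103 (0.29), which was above it on 11. That order holds for this scale and these arrays only. SNORD3@ had an SD of 0.28 without nematode wild type replicate 4, and also 0.28 with cyclic loess over all 14 arrays. The SDs of the reference microRNAs under those settings are not given here, so which are steadier there is not known. miR-191 (0.50), miR-24 (0.52) and miR-23a (0.60) had higher SDs than SNORD2. The let-7a probe carries no mouse name and was not tested. None of the 6 tested was called by the F test over the 4 groups. Of the 7 listed microRNA names that are used for fragments of other small RNAs, 4 had a probe. miR-720, an early entry for a transfer RNA fragment, was above the blank level on all 14 arrays, with an SD of 0.58 and a wild type minus knockout difference of 1.17 in nematode-elicited cells (limma adjusted p = 0.0126).

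Across the 14 arrays, the mouse microRNA probe whose quantile-scale pattern was most like that of SNORD2 was miR-671 (Pearson r = 0.75), followed by miR-150 (0.64), miR-194 (0.62), miR-341 (0.62) and miR-450 (0.60). After median scaling miR-671 was again first, at 0.87. For U6-snRNA-1 they were miR-691 (0.83), miR-23b (0.80), miR-30d (0.79), miR-487b (0.79) and miR-29b (0.77). For SNORD3@ they were miR-494 (0.89), miR-690 (0.83), miR-30d (0.76), miR-30c (0.76) and miR-691 (0.74). For U6-snRNA-2, on the median-scaled values, miR-223 came first (0.83). These are the highest of 343 correlations over 14 arrays that share their brightness, and are given as a description.

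The effect of using the small RNAs as references was then measured. Each array was scaled to the mean log2 intensity of the 4 probes above the blank level on at least 11 arrays (SNORD2, SNORD3@, U6-snRNA-1 and U6-snRNA-2). Before any normalization that mean was 9.42 ± 0.51 (SD, n = 3) in the thioglycollate wild type group and 10.14 ± 0.23 (SD, n = 3) in the thioglycollate knockout group. It was 9.81 ± 0.78 (SD, n = 4) in the nematode wild type group and 9.84 ± 0.24 (SD, n = 4) in the nematode knockout group. The lowest and highest arrays were thioglycollate wild type replicate 2, at 8.95, and nematode wild type replicate 1, at 10.80. The wild type and knockout thioglycollate groups differed by -0.72, so scaling to these probes shifted all mouse microRNAs there: their median wild type minus knockout difference became 0.64, where it was 0.00 with quantile normalization.

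With scaling to the small RNAs the microRNA comparisons were less precise than with quantile normalization. The median standard error of a mouse microRNA's elicitation difference was 0.38 after this scaling and 0.14 after quantile normalization. It was 0.36 after scaling to the labelling spike-ins, described further on, so the larger error was not particular to the small RNAs. The number of mouse microRNA probes called went from 4 to 1 for elicitation in wild type cells, from 5 to 1 for elicitation in knockout cells, from 6 to 3 between genotypes in nematode-elicited cells, from 1 to 0 in thioglycollate-elicited cells and from 2 to 0 for the interaction. The F test called 2 in place of 14. Every probe called after the scaling was also called with quantile normalization.

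Of the calls between groups, 5 remained. miR-422b (the array's older name for miR-378) was called for elicitation in wild type cells under both scalings, with differences of 1.83 (quantile; limma adjusted p = 0.00130) and 1.61 (scaled to the small RNAs; adjusted p = 0.0175). miR-689 was called for elicitation in knockout cells, with 1.84 and 2.05. Between genotypes in nematode-elicited cells, miR-422b, miR-689 and miR-125b remained called. miR-125b, a member of the lin-4 family, differed by 1.30 with quantile normalization and by 1.36 with scaling to the small RNAs.

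Each of the lost calls that are named here had a larger standard error after the scaling. For elicitation in wild type cells miR-146, an NF-kB-induced microRNA, differed by -0.76 (SE 0.12) with quantile normalization and by -0.82 (SE 0.36) after scaling to the small RNAs, with limma adjusted p-values of 0.00457 and 0.821. miR-18 and miR-342 lost their calls likewise. In knockout cells miR-34a, a p53-responsive microRNA, differed by -1.35 (SE 0.12) and by -1.07 (SE 0.38), with adjusted p-values of 3.37e-05 and 0.464, and miR-222, miR-150 and miR-551b lost their calls too. Between genotypes in nematode-elicited cells miR-223, the myeloid microRNA, differed by 1.35 and 1.11 (adjusted p = 0.178 after scaling), and miR-720 and miR-150 also lost the call. In thioglycollate-elicited cells the single call, miR-34a, differed by -1.16 with quantile normalization and by -0.58 after scaling to the small RNAs (adjusted p = 0.262). Its value there moved with the shift of all microRNAs by 0.64.

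The labelling spike-ins gave a second reference. These synthetic RNAs were added to the RNA samples with the labelling mix, and 6 of the array's 10 spike-in probes were above the blank level on at least 11 arrays. Their mean log2 intensity before normalization was 8.84 ± 0.17 (SD, n = 3) in the thioglycollate wild type group, 9.13 ± 0.11 (SD, n = 3) in the thioglycollate knockout group, 8.51 ± 0.78 (SD, n = 4) in the nematode wild type group and 8.13 ± 0.23 (SD, n = 4) in the nematode knockout group. In knockout cells all 6 spike-ins were lower on every nematode array than on every thioglycollate array, by 1.00 on average, where the 4 small RNA probes differed by -0.30. In wild type cells the spike-ins differed by -0.33 and the small RNAs by 0.39. Those wild type differences were -0.016 and 0.65 without nematode wild type replicate 4.

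With each array scaled to the spike-ins, 10 of the 12 small RNA probes were called higher in nematode-elicited than in thioglycollate-elicited knockout cells, all but the U6 probes, along with 298 of the 343 mouse microRNA probes. Of those 10, 6 (SNORD4A, SNORD6, SNORD10, SNORD14B, SNORD15A and SNORD118) were below the blank level on every nematode knockout array, so no difference is read from them. The median of all mouse microRNA probes then differed by 0.96 there, against -0.04 with quantile normalization. SNORD2 differed by 1.41 on that scale, 0.46 more than that median. In wild type cells no small RNA probe was called with this scaling: the SNORD2 difference was 1.28 (limma adjusted p = 0.0886) and the median of all mouse microRNA probes 0.43. This scaling was chosen after the data had been seen. The part of spike-in recovery in these differences was not tested.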

How the data were processed

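Slide files held the scanner's foreground and background intensity of every spot in the Hy3 channel, as the authors deposited them. The deposited value table held the same net intensity (foreground less background) with no normalization: each of its columns equalled it within 0.001, and this equality was used to check which block of a slide belongs to which sample. Its columns had medians from 10.5 to 19.1. The scanner's own steps are not given in the sources used here. Probe names are those of the slide files and can be old.

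Intensities were background-corrected with normexp (offset 50, all spots), put on the log2 scale, averaged over a probe's spots and quantile normalized over 1321 named probes (343 mouse, 966 of other species and the 12 small RNA probes). limma 3.58.1 in R 4.3.3 fitted a mean per group over 14 arrays with eBayes. Two-sided p-values were adjusted by Benjamini-Hochberg over 355 probes. A difference is on the log2 scale of the offset values, which understates changes of dim probes. The fit was tested on simulated data. Precision is limited by the number of arrays.

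The members, lists and tests were chosen with earlier results of these data known. All 12 probes are named, with the 4 brightest and any called ones in full. Replicate numbers were not used to pair arrays in the main fit. Of 19 pairs sharing a number, 5 correlated above 0.1 in their deviations, and of 54 pairs not sharing one, 16 did. These counts cannot show whether the arrays were paired. Alternatives were other background corrections, normalizations, spot summaries, filters, blocks, single arrays left out and the value table. Spike-in scaling and leaving out slide 15 were added after seeing the data.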

Additional observations from a re-analysis of the deposited data

Results flagged for a closer look

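One value stood apart from its group by Dixon's test, among 23 groups of 4 arrays examined, where chance flags about 1 in 20. SNORD2 in nematode wild type replicate 2 read 10.43 on the quantile log2 scale, while the other 3 arrays of the group all read 10.30. The distance is the step between rank 9 and rank 10 among the 1321 probes. The net intensities of that group, 1872, 1448, 893 and 644, do not set replicate 2 apart. No small RNA probe was called for the interaction of elicitation and genotype (0 by limma, and 0 at an unadjusted p under 0.05), and none had groups apart in opposite directions in a pair of comparisons.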

How the results depend on the processing

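SNORD2 was higher after nematode implantation under all 17 alternatives in both genotypes, but past the threshold in 8 of 17 in wild type and 5 of 17 in knockout cells. The 17 are not separate checks of direction. The authors' value table repeated plain subtraction. The filter for probes above blank spots, the trend and robust fit and the fit of only the groups compared kept the main estimate by construction. In wild type cells the call was lost, and the number of called small RNA probes was 0, with plain subtraction and with the authors' value table (0.88 for both), median scaling (0.88), no normalization (0.95), the median of spots (0.86), the trend and robust fit (0.83), only the groups compared (0.83), spike-in scaling (1.28) and the replicate block (0.80, limma adjusted p = 0.0654). In knockout cells it was lost, again with 0 called, without background correction (0.75), with plain subtraction or the value table (0.82), an offset of 20 (0.80), median scaling (0.44), no normalization (0.42), cyclic loess (0.59), the median of spots (0.81), the trend and robust fit (0.77), the replicate block (0.74, limma adjusted p = 0.0827), the position on the slide as a term (0.78) and both arrays of slide 15 left out (0.99). Spike-in scaling called 10 there, and the fitted values of SNORD118 (0.89), SNORD14B (0.77) and SNORD6 (0.91) turned from negative to positive. These 3 were below the blank level on every nematode knockout array, so no difference is read from them, and that scaling moved the median of all mouse probes by 0.96.

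Leaving out single arrays, the SNORD2 difference ran from 0.60 to 0.99 in wild type and from 0.70 to 0.89 in knockout cells, and the count of called probes from 0 to 1 in both. That count ran from 0 to 1 between genotypes in nematode-elicited cells, with 0 in 13 of 14 cases, and from 1 to 2 in the F test. Leaving out slide 15 gave 1 between genotypes in nematode-elicited cells (SNORD12) and 2 in the F test (SNORD2 and SNORD12). The F test called 0 with plain subtraction, the value table, median scaling, no normalization and the median of spots, 2 with cyclic loess (SNORD2 and SNORD13) and 4 with spike-in scaling. The replicate block changed no other call of a small RNA probe. The random slide block had an estimated correlation of -0.0053.

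Mouse microRNA calls went from 4 to 1 (elicitation, wild type), 5 to 1 (elicitation, knockout), 6 to 3 (genotype, nematode), 1 to 0 (genotype, thioglycollate), 2 to 0 (interaction) and 14 to 2 (F test) with scaling to the small RNAs, and with spike-in scaling to 1, 298, 6, 0, 0 and 75. The 298 take in probes below the blank level. Over all 60 differences of small RNA probes and their alternatives, 1628 of 1828 values kept their call and moved by less than the SD within groups or stayed called, and 117 uncalled values changed sign. The causes were not tested. Signal over background limits the 8 dimmer probes, of which SNORD15A was above the blank level on no array.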
